A study of Mus musculus with 22 samples.

Results

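Blastocysts of B6 mice that had reached embryonic day 3.5 in KSOM were set against B6 blastocysts that had reached the same stage in ISM1, on 6 of the 22 arrays of the study, chosen by their titles. The 3 KSOM arrays and the 3 ISM1 arrays each held total RNA that the labels call a biological replicate, amplified from 150 ng with an in vitro transcription of 12 h. The other arrays held B6 blastocysts from HTF or grown in vivo (3 arrays each) and CD1 blastocysts from KSOM (1 array), ISM1, HTF or in vivo growth (3 arrays each). KSOM is a potassium-enriched medium derived by stepwise optimisation for mouse embryos, and the labels do not give the composition of ISM1. The number of embryos per array, the gas phase, the time spent in the medium and any processing batch were not given in the sources used here. The p-values therefore measure the spread between arrays, pooled over the groups of all 22 arrays.

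A blastocyst has an outer epithelium, the trophectoderm, around a fluid-filled cavity and an inner cell mass. The trophectoderm fills the cavity by pumping sodium with the Na/K-ATPase, with water following through aquaporins, while tight junctions seal it. The inner cell mass gives the epiblast and the primitive endoderm. The medium is the embryo's source of ions, energy substrates and trace metals until implantation. Of those metals, zinc is carried into the cytosol by the Slc39a family (ZIP importers) and out of it by the Slc30a family (ZnT exporters). The factor Mtf1 senses zinc and acts through metal response elements in the promoters of the exporter Slc30a1 and of the zinc-binding metallothioneins Mt1 and Mt2.

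The RNA carried blastocyst markers. Cdx2, the trophectoderm transcription factor, averaged a log2 intensity of 13.08 ± 0.51 in KSOM and 12.93 ± 0.32 in ISM1 blastocysts (SD, n = 3 each), and Nanog, an epiblast factor, averaged 12.67 ± 0.41 in KSOM and 13.14 ± 0.23 in ISM1. Of 10 cumulus and granulosa cell markers on the array, 0 were detected on any of the 6 arrays, and of 9 blood and immune markers 2 were (Hbb-bt on 1 ISM1 array, and Cd3e on 3 KSOM arrays and 1 ISM1 array). Of 10 oviduct and uterine markers 5 were detected, and 2 of these, Wfdc2 and Muc1, had every KSOM array above every ISM1 array, by 1.56 and 0.53 on the log2 scale. The mean level of the 5 ran from 6.96 to 7.17 on the KSOM arrays and from 6.42 to 6.86 on the ISM1 arrays, and their part in any result was not tested. In whole blastocysts, fewer cells of a type and less RNA per cell cannot be told apart.

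Before normalisation the arrays differed in brightness. The median bead intensity was 154, 147 and 107 on KSOM arrays 1, 2 and 3, against 146, 142 and 145 on the ISM1 arrays. KSOM array 3 was the dimmest of the 6 and detected 9206 probes, against 10055 to 10501 on the others. After normalisation, log2 values of all tested genes correlated at a mean r of 0.919 among KSOM arrays, 0.949 among ISM1 arrays and 0.918 between the media. KSOM array 2 lay closer to the ISM1 arrays (mean r 0.962) than to the other KSOM arrays (0.924). The median SD of a gene was 0.49 among the KSOM arrays and 0.35 among the ISM1 arrays. The median of a gene list is therefore given with its lowest and highest value when each of the 6 arrays was left out in turn, called its leave-one-out range.

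Over all 9345 genes tested, no gene passed limma at an adjusted p under 0.05 (0% called, lowest adjusted p 0.0731, shared by 7 genes). At an unadjusted p under 0.05 there were 1150 genes (12.3%), 585 of them higher in KSOM (6.26%) and 565 lower (6.05%). For 1491 genes the arrays of the media did not overlap, with KSOM above ISM1 for 823 (8.81%) and below it for 668 (7.15%). With 3 against 3 arrays, an exact permutation test of a single gene cannot pass 0.05. Without KSOM array 2 the same fit called 296 genes, 127 higher and 169 lower in KSOM, and without ISM1 array 3 it called 4, Lxn, Luzp2, Slc30a1 and Slc39a6. With arrays weighted by their estimated quality it called 555. Of all genes, 4746 (50.8%) had a higher mean in KSOM, the median log2 difference was 0.01, and the 5th and 95th percentiles were -1.20 and 1.08. Median scaling in place of quantile normalisation moved that median by -0.10 and the unadjusted split to 361 higher and 727 lower.

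The zinc exporter Slc30a1 and the zinc importer Slc39a6 were among the 20 non-overlapping genes with the smallest unadjusted p. The 250 bases before the RefSeq start of Slc30a1 and of Mt2 are shown because the media did not overlap for the exporter and did overlap for the metallothionein. Capitals mark each match to a 7-base core of the metal response element, TGCACNC or TGCGCNC, on either strand (GRCm38.p6, RefSeq, plus strand). Slc30a1 is shown over chr1:191906531-191906780 and Mt2 over chr8:94172368-94172617.
Slc30a1: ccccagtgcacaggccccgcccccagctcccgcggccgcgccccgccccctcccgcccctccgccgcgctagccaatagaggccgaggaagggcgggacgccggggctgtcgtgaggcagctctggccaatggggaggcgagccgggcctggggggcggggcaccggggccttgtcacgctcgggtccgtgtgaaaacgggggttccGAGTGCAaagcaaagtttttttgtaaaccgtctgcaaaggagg
Mt2: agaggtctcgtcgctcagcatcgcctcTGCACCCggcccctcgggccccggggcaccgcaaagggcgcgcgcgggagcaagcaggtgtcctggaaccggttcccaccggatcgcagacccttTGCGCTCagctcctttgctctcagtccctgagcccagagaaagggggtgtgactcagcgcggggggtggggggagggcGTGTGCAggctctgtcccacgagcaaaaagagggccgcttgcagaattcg
The Slc30a1 window held 1 match, 43 bases before the start, and the Mt2 window held 3, at 223, 128 and 50 bases before it. The Mt1 window, not shown, also held 1 match, 23 bases before the start. With the 50 bases after the start included, there were 2 matches for Slc30a1, 3 for Mt1 and 4 for Mt2. Of 32851 promoter windows of the same length, 21.4% held at least 1 match and 1.26% at least 3, so 1 match sets Slc30a1 apart little from other promoters. These letters are a description and say nothing on whether Mtf1 was bound.

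Slc30a1, the zinc exporter of the plasma membrane, read 8.72, 9.60 and 9.84 log2 units on the KSOM arrays and 11.67, 11.45 and 10.39 on the ISM1 arrays. Every KSOM array lay below every ISM1 array, a 3.44-fold difference (log2 difference -1.78 ± 0.37 SE, limma adjusted p = 0.112). The importer Slc39a6 read 6.84, 7.84 and 7.03 in KSOM and 9.64, 9.15 and 8.34 in ISM1, again without overlap (-1.81 ± 0.35 SE, adjusted p = 0.0823). Its KSOM arrays were also below all 9 other B6 arrays, as those of 74 genes were (0.792%). The CD1 arrays entered the choice of these genes through the joint normalisation, the detection filter, the choice of probe and the spread shared in the fit, not through a difference between media in CD1. In CD1 the KSOM array read 8.89 for Slc30a1, against 10.55, 11.13 and 11.29 on the ISM1 arrays. It read 7.75 for Slc39a6, against 9.30, 9.68 and 9.53. Exporter and importer were both lower on every KSOM array than on every ISM1 array of the same strain.

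The zinc-binding proteins did not separate in this way. Mt1 read 14.50, 14.26 and 14.54 in KSOM against 15.12, 14.97 and 13.15 in ISM1 (difference 0.02, interval -0.98 to 1.02), and its sign turned under 6 of the other settings. Mt2 read 8.40, 8.34 and 8.18 in KSOM against 9.72, 10.04 and 6.99 in ISM1, so that ISM1 array 3 was below all KSOM arrays and the other ISM1 arrays above them (-0.62, interval -2.32 to 1.09). These intervals are wide, and the data do not show that the media acted alike on either gene. Mtf1 was below ISM1 on every KSOM array, at 6.10, 6.04 and 5.09 against 6.84, 6.71 and 7.22 (adjusted p = 0.459). Of 16 zinc transporters tested, a list drawn up after values were seen, 8 were higher and 8 lower in KSOM, with a median difference of -0.02 (leave-one-out range -0.27 to 0.07). Beside Slc30a1 and Slc39a6, Slc39a10 was lower by 1.11 (log2) and Slc30a5, an exporter of the secretory pathway, by 0.72, both with overlapping arrays. Slc39a4, the importer defective in acrodermatitis enteropathica in humans, averaged 12.94 ± 0.54 in KSOM and 12.46 ± 0.43 in ISM1 and overlapped.

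**Figure D1:**
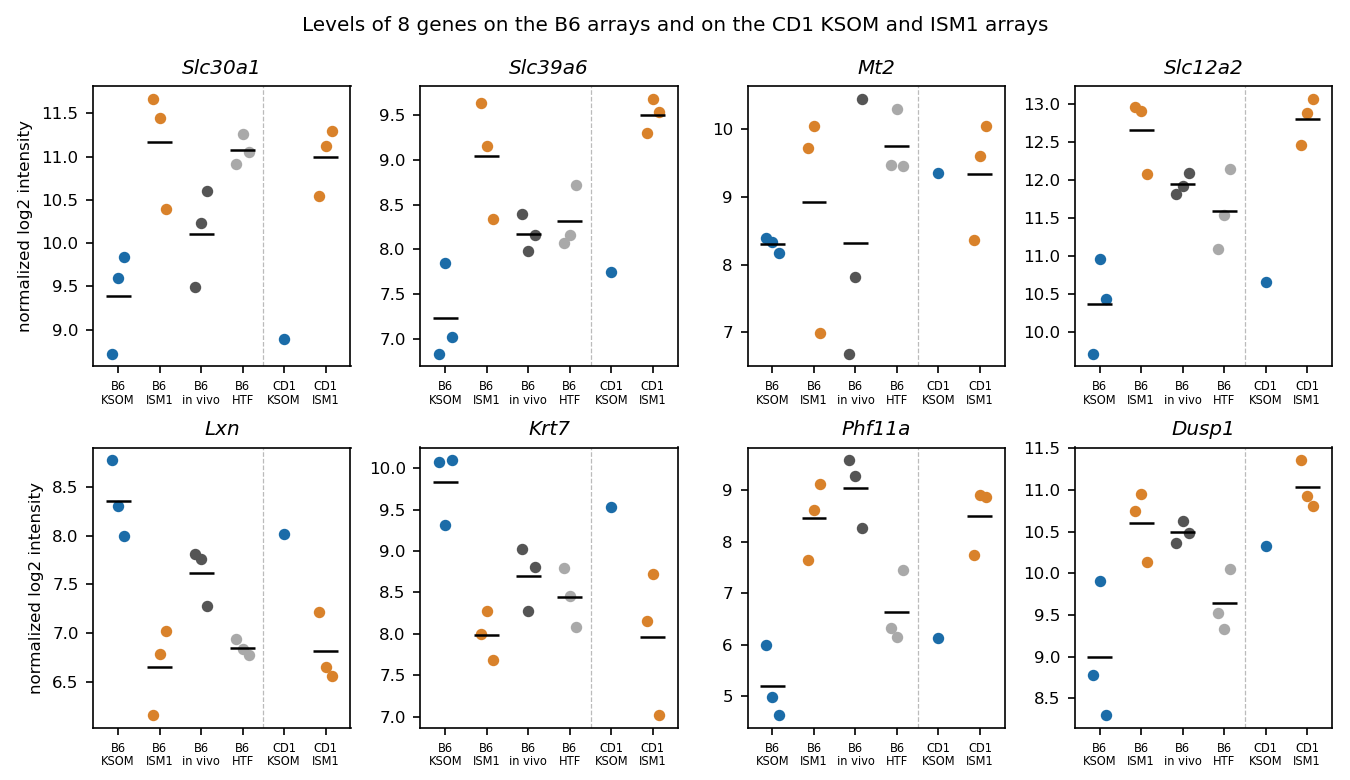
Normalized log2 intensity (vertical axes) of 8 genes on each B6 array by medium or in vivo growth and on the CD1 KSOM and CD1 ISM1 arrays, with a point per array and a bar at each group mean. Slc30a1, Slc39a6, Slc12a2, Phf11a and Dusp1 are lower, and Lxn and Krt7 higher, on the B6 KSOM arrays than on every B6 ISM1 array, and the single CD1 KSOM array lies on the same side of the CD1 ISM1 arrays for these 7 genes but among them for Mt2.

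Several genes of chloride, sodium and water transport were also lower in KSOM. Slc12a2, the Na-K-2Cl cotransporter that loads cells with chloride and restores volume after shrinkage, read 9.72, 10.96 and 10.44 in KSOM and 12.96, 12.90 and 12.08 in ISM1. All KSOM arrays were below all ISM1 arrays and below the 6 HTF and in vivo arrays, with a 4.84-fold difference from ISM1 (log2 -2.28 ± 0.53 SE, adjusted p = 0.16), and a second probe differed by -3.21. The CD1 KSOM array read 10.66 against 12.46, 12.88 and 13.07 in CD1 ISM1. Sgk1, a kinase induced by cell shrinkage and by steroid hormones, read 10.80, 12.34 and 10.45 in KSOM against 12.80, 12.87 and 12.99 in ISM1 (-1.69 ± 0.44 SE, adjusted p = 0.183). Wnk1, a kinase upstream of chloride cotransport, was lower by 1.09 and the taurine transporter Slc6a6 by 1.40, where KSOM array 2 (10.88) lay just above the lowest ISM1 array (10.87). Slc4a2, a chloride-bicarbonate exchanger, went the other way at 9.39, 8.62 and 11.61 in KSOM against 7.78, 7.61 and 8.53 in ISM1 (1.90 ± 0.69 SE, adjusted p = 0.299). Of the 12 osmotic and volume genes tested, 5 were higher and 7 lower in KSOM, and 2 in each direction did not overlap, against 8.81% of all genes above and 7.15% below. Their median of -0.39 had a leave-one-out range from -0.60, without KSOM array 1, to -0.08, without KSOM array 3.

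All 4 aquaporins tested were lower in KSOM, and 3 of them did not overlap with ISM1. Aqp9, which also passes glycerol, read 11.85, 11.89 and 11.54 in KSOM against 12.55, 12.40 and 12.47 in ISM1 (-0.71 ± 0.26 SE, adjusted p = 0.299). Aqp3, a water and glycerol channel, read 10.16, 11.23 and 8.91 against 11.79, 11.64 and 11.53 (SD 1.16 in KSOM and 0.13 in ISM1). The interval of its log2 difference, which uses the spread pooled over the groups of all 22 arrays, was wide (-3.87 to 0.76). Among the pumps, the Na/K-ATPase subunit Atp1b3 was lower by 0.93 with KSOM array 2 among the ISM1 arrays, and the H/K-ATPase subunit Atp12a read 8.94, 10.24 and 9.95 against 10.44, 10.65 and 10.44. Atp1b1, the other beta subunit tested, averaged 11.21 ± 1.03 in KSOM and 11.59 ± 1.13 in ISM1 and overlapped, and its sign turned without ISM1 array 3. Of the 6 pump and exchanger genes tested, 3 were higher and 3 lower, with a median of -0.12 (-0.01 without KSOM array 3). The 4 aquaporins had a median of -0.75. Over the 10 pump and water channel genes the median was -0.70, with 0 members above and 4 below ISM1 on every array, against 7.15% of all genes below. The leave-one-out range ran from -0.86, without KSOM array 2, to -0.37, without ISM1 array 3.

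Epithelial products of the trophectoderm were mostly higher in KSOM, and its transcription factors split. Krt7, a simple-epithelium keratin, read 10.07, 9.32 and 10.10 in KSOM against 7.99, 8.28 and 7.68 in ISM1, a 3.59-fold difference (log2 1.85 ± 0.45 SE, adjusted p = 0.17), and its KSOM arrays were above all 9 other B6 arrays. Krt8 read 13.88, 13.67 and 13.81 against 12.81, 12.99 and 13.55, and its partner Krt18 read 12.94, 12.54 and 13.26 against 11.43, 11.71 and 12.67. All 3 keratins were thus brighter in KSOM on nearly every array, and the exception was ISM1 array 3, which exceeded KSOM array 2 for Krt18. Of 10 keratins and other epithelial products of the list, 9 were higher, with a median of 0.61 and 2 without overlap, against 8.81% of all genes, and the leave-one-out range ran from 0.34, without ISM1 array 1, to 1.11, without ISM1 array 3. Of 11 transcription factors, 5 were higher and 6 lower, with 0 without overlap, and their median of -0.26 depended on the arrays, from -0.61 without KSOM array 2 to 0.34 without KSOM array 3. Gata3 read 9.26, 10.11 and 8.08 in KSOM against 8.43, 9.23 and 10.58 in ISM1, and Eomes 9.96, 9.62 and 9.20 against 7.97, 8.99 and 10.86. ISM1 array 3 was the highest of the 6 for both, and the sign of each turned when 1 array was left out, as did that of Cdx2 (0.15), also negative under median scaling.

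Of 12 epithelial junction genes tested, 1, Cldn6, was higher in KSOM without overlap (8.33%, against 8.81% of all genes), and 0 were lower without overlap. Cldn6, a claudin typical of embryonic epithelia, read 11.69, 11.22 and 11.75 in KSOM against 9.47, 9.90 and 10.40 in ISM1 (1.63 ± 0.36 SE, adjusted p = 0.142). The CD1 KSOM array, at 10.62, lay among the CD1 ISM1 arrays, which read 10.68, 10.23 and 10.43. The other 11 junction genes had overlapping arrays, among them occludin (Ocln, -0.78), Tjp1 (-0.48) and E-cadherin (Cdh1, -0.21).

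In the inner cell mass list, 10 of 18 genes were higher and 8 lower, with a median of 0.12 that was -0.01 under median scaling and ran from -0.08, without ISM1 array 2, to 0.19, without KSOM array 3. Gdf3, a TGF-beta family ligand, was the 1 member without overlap (5.56%, against 8.81% of all genes). It read 10.89, 10.44 and 11.31 in KSOM against 9.83, 10.01 and 10.37 in ISM1 (adjusted p = 0.373). The largest difference of the list, 3.17 for another signal or surface protein, was with overlap. Nanog was 0.47 lower (interval -1.22 to 0.28). Pou5f1 averaged 10.69 ± 1.30 in KSOM and 9.86 ± 0.71 in ISM1, with KSOM array 3 (12.20) far above the rest, and Sox2 averaged 6.19 ± 0.64 in KSOM and 5.75 ± 0.14 in ISM1. The arrays of the media overlapped for both genes.

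Primitive endoderm genes split. Gata6, its early transcription factor, read 11.83, 12.60 and 12.05 in KSOM against 13.30, 13.02 and 12.68 in ISM1, with every KSOM array below every ISM1 array (-0.84 ± 0.30 SE, adjusted p = 0.299). Nid2, a basement membrane protein, was lower by 1.28 and Apoe, a lipid carrier, higher by 1.42, neither with overlap. Sox17 read 8.49, 8.84 and 7.69 in KSOM against 6.38, 5.06 and 9.88 in ISM1, and Gata4 was detected on 1 KSOM array and no ISM1 array. Of the 17 genes 12 were higher, with a median of 0.28 and a leave-one-out range from 0.20, without ISM1 array 3, to 0.68, without KSOM array 2.

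The 20 genes with the smallest unadjusted p among those without overlap were named whatever their adjusted value (0.0731 to 0.16). Among the 10 higher in KSOM, Lxn, a carboxypeptidase inhibitor, read 8.77, 8.30 and 7.99 in KSOM against 6.15, 6.78 and 7.02 in ISM1 (3.26-fold, adjusted p = 0.0731). Cuedc2, a ubiquitin-binding CUE domain protein, read 9.48, 9.05 and 9.78 against 7.20, 7.41 and 7.78 (3.93-fold, adjusted p = 0.0731). Col7a1, the collagen of anchoring fibrils, read 8.01, 8.16 and 8.58 against 6.30, 6.78 and 6.46 (3.34-fold, adjusted p = 0.0972). All 3 also had KSOM above the 9 other B6 arrays, a place held by 136 genes (1.46%).

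The remaining higher genes were smaller or near the detection limit. BC048679 read 9.49, 9.41 and 9.52 in KSOM against 8.51, 8.49 and 8.19 in ISM1, a tight 2.11-fold difference, and its ISM1 arrays were below all 9 other B6 arrays, as were those of 39 genes (0.417%). Emc9, a subunit of the endoplasmic reticulum membrane complex, was 2.22-fold higher. Traf1, an adaptor of tumour necrosis factor receptors, averaged 6.14 in KSOM and 4.76 in ISM1, where it was not detected on any array, so KSOM was at least 1.65-fold higher. Such a bound sets a mean against the detection floor and does not allow for the spread between arrays. Nrl, a transcription factor best known from rod photoreceptors, averaged 6.56 in KSOM and 4.70 in ISM1, where it was likewise undetected, so KSOM was at least 2.21-fold higher. Snx22, a sorting nexin, and Arhgap45 were higher by 1.51 and 1.84 (log2) and were detected on 1 ISM1 array each.

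Among the 10 lower genes, the largest difference was that of Phf11a, a PHD finger gene of a cluster of close relatives. It read 5.99, 4.98 and 4.63 in KSOM against 7.64, 8.62 and 9.13 in ISM1 (9.60-fold, log2 -3.26 ± 0.60 SE, adjusted p = 0.0731), and was detected on 1 KSOM array. Its KSOM arrays were the lowest of all B6 arrays and the in vivo arrays read 9.59, 9.28 and 8.27. A second probe differed by -3.33, and its relative Phf11d was lower by 1.17, also without overlap, though probes of near-identical copies may read each other. Klhl7, an adaptor of a Cullin-3 ubiquitin ligase, read 5.55, 7.99 and 5.55 in KSOM against 9.40, 9.92 and 8.93 in ISM1, and Sirt1, an NAD-dependent deacetylase, 6.72, 8.58 and 5.27 against 9.93, 9.53 and 10.17. For both, KSOM array 2 lay nearest to ISM1.

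Dusp1, a phosphatase that turns off MAP kinases, read 8.78, 9.90 and 8.30 in KSOM against 10.74, 10.95 and 10.14 in ISM1 (3.06-fold, adjusted p = 0.151). Stk17b, a serine/threonine kinase, read 7.93, 8.33 and 7.76 against 9.49, 9.74 and 9.67. Ints13, an Integrator subunit, was 2.39-fold lower with 2 further probes at -1.17 and -1.55. Wdr45b, an autophagy protein, was 2.41-fold lower by its brightest probe, but its other probes gave 0.21 and -0.66, so its direction depends on the probe. Luzp2 averaged 4.63 in KSOM, where it was not detected, and 6.61 in ISM1, so it was at least 2.18-fold lower, and its ISM1 arrays were above all 9 other B6 arrays, as were those of 41 genes (0.439%).

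**Figure D2:**
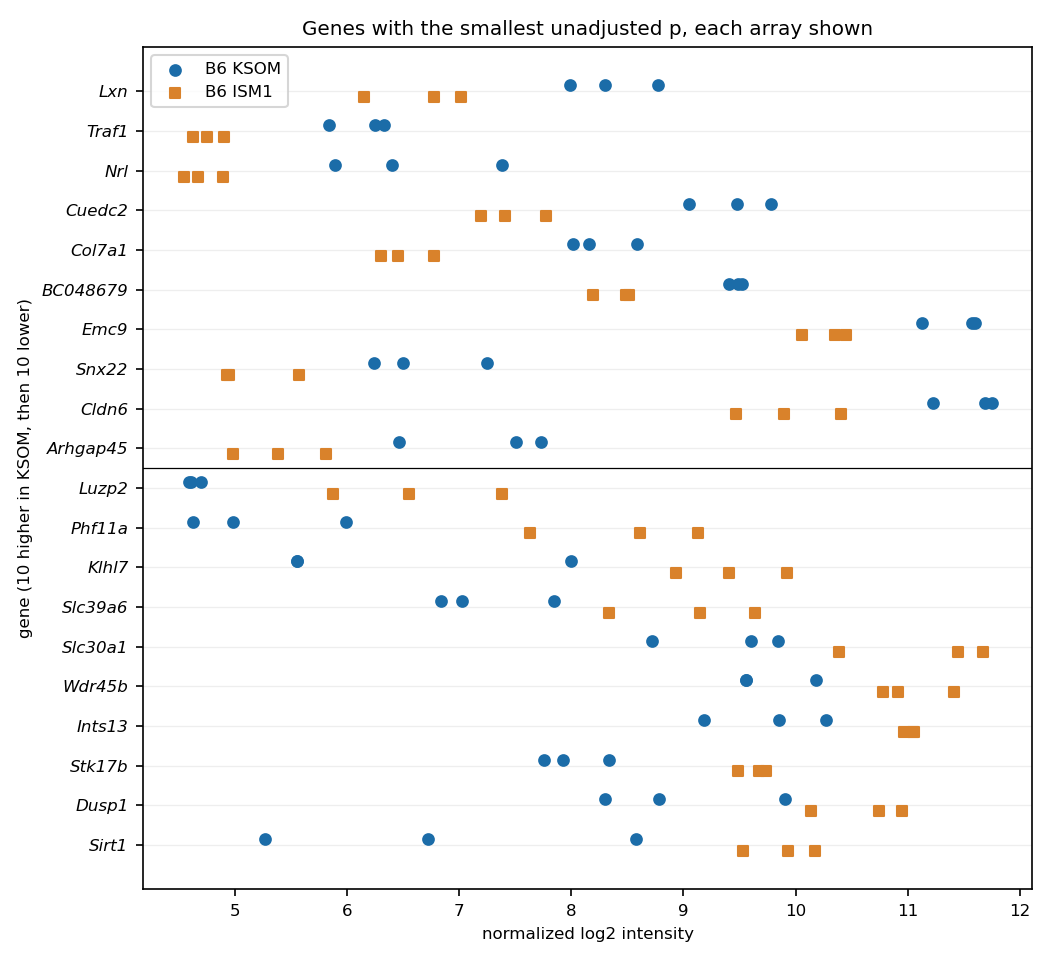
Normalized log2 intensity (horizontal axis) of the 10 genes higher and the 10 genes lower in KSOM with the smallest unadjusted p, with circles for the 3 B6 KSOM arrays and squares for the 3 B6 ISM1 arrays. The genes were chosen for not overlapping, and the plot shows that the gap is narrow for Dusp1 (9.90 against 10.14 at its closest) and wide for Phf11a (5.99 against 7.64).

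Genes of mitochondrial ATP production were mostly higher in KSOM. Of 67 tested subunits of oxidative phosphorylation, 50 were higher and 17 lower, 22 had every KSOM array above every ISM1 array (32.8%, against 8.81% of all genes) and 0 the reverse. The median difference was 0.36, with 0.52 for complex IV, 0.44 for complexes II and III, 0.32 for complex I and 0.32 for ATP synthase. Ndufs8, an iron-sulfur subunit of complex I, read 11.88, 10.55 and 12.29 in KSOM against 10.33, 10.37 and 10.23 in ISM1. Ndufa8, also of complex I, was higher by 1.21, and Sdhb, the iron-sulfur subunit of complex II, by 1.33 (adjusted p = 0.245 and 0.268). The list mean was 10.69, 10.78 and 11.30 on KSOM arrays 1, 2 and 3 and 10.49, 10.69 and 10.53 on the ISM1 arrays, so KSOM array 3, the dimmest, was the highest and KSOM array 1 was level with ISM1 array 2 at 2 decimals. The leave-one-out range of the list median ran from 0.16, without KSOM array 3, to 0.45, without KSOM array 2. Without KSOM array 3 the medians were 0.25 for complex IV, 0.26 for complexes II and III, 0.07 for complex I and 0.11 for ATP synthase, and whether brightness had a part in the difference was not tested.

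Glycolysis showed a similar tilt on fewer genes. Of 20 genes 13 were higher, 4 without overlap, against 8.81% of all genes, and 0 the reverse. The median of 0.34 had a leave-one-out range from 0.13, without KSOM array 3, to 0.46, without KSOM array 2. Gapdh read 13.69, 13.51 and 14.29 in KSOM against 11.97, 12.13 and 12.79 in ISM1 (2.90-fold, adjusted p = 0.268), with 1.67 at a second probe. Aldoa, the muscle-type aldolase, read 12.40, 11.86 and 12.54 against 10.95, 11.09 and 11.28, and Slc2a1, a glucose transporter, was 0.68 higher without overlap. Aldoa differed by 0.05 in CD1, where the list median was -0.02. In the tricarboxylic acid cycle list, 10 of 17 were higher with a median of 0.17 (leave-one-out range 0.12 to 0.28), and pyruvate dehydrogenase subunits Pdha1 (-0.91) and Pdhb (-0.62) were lower with overlap. Cytosolic ribosomal proteins had a median of 0.18, with 41 of 54 higher, and a leave-one-out range from 0.03, without KSOM array 3, to 0.27, without KSOM array 2. Of them 3 (5.56%) were higher without overlap, a smaller share than the 8.81% of all genes. Rpl19 (0.78) and Rpl29 (0.83) were its members with an unadjusted p under 0.05, both with overlapping arrays. The proteasome median was 0.02, and -0.10 under median scaling (leave-one-out range -0.02 to 0.08).

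Replication-dependent histones, whose messenger RNAs accumulate in S phase and lack poly(A) tails, had the highest median of all lists. Of 34 genes 28 were higher in KSOM, with a median of 0.75, and 10 did not overlap (29.4%, against 8.81% of all genes) with 0 the reverse. H2bc11 read 6.86, 6.52 and 8.65 in KSOM against 5.23, 5.15 and 5.61 in ISM1 (2.01 ± 0.58 SE, adjusted p = 0.245). H2bc12 read 8.38, 7.64 and 9.97 against 6.15, 6.80 and 7.65, with ISM1 array 3 just above KSOM array 2, and H2ac8 was higher by 2.14 with overlap. The list mean was 7.79, 7.37 and 7.72 on the KSOM arrays and 6.52, 6.92 and 7.30 on the ISM1 arrays, without overlap. Leaving out 1 array at a time gave medians from 0.33, without ISM1 array 1, to 0.93, without ISM1 array 3. Histone copies are close in sequence, and how far each probe reads only its own gene was not tested. How fully the amplification took up RNA without poly(A) tails was not tested either. Other cell cycle genes did not show the same direction: 20 of 30 were lower, with a median of -0.21 and a leave-one-out range from -0.23, without KSOM array 2, to -0.10, without ISM1 array 3. Ccnd3 (cyclin D3) was higher by 0.94, with 0.31 at a second probe. Cdc6, a replication licensing factor, was lower by 1.17, with a difference of -0.23 at a second probe.

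**Figure D3:**
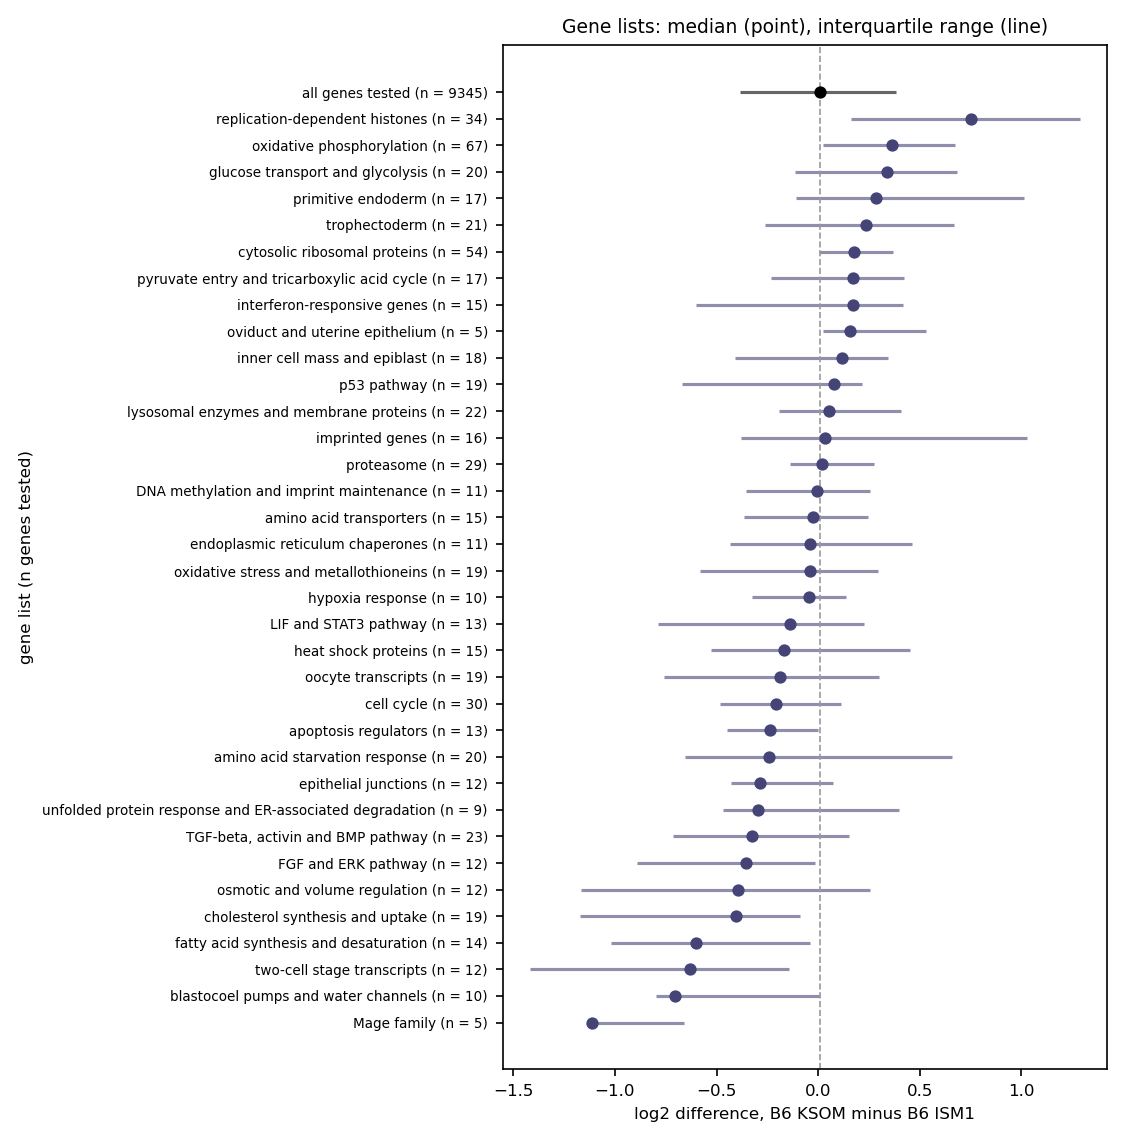
Difference between B6 KSOM and B6 ISM1 (log2, horizontal axis) for each gene list with at least 5 tested genes, other than the sex-linked and zinc lists, as the median (point) and the interquartile range (line) of its members, below the same for all genes at the top. Histones (0.75) and oxidative phosphorylation (0.36) have the highest medians, and the Mage family (-1.11) and the pump and water channel genes (-0.70) the lowest.

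Lipid synthesis genes were mostly lower in KSOM. Of 19 cholesterol synthesis and uptake genes 17 were lower, with a median of -0.40, but 1 was without overlap (5.26%, against 7.15% of all genes). That gene, Hsd17b7, a sterol-pathway reductase, read 8.93, 10.11 and 7.51 in KSOM against 11.76, 12.15 and 10.30 in ISM1 (5.87-fold, adjusted p = 0.18). The list mean was 8.94, 8.96 and 8.80 on the KSOM arrays and 10.25, 10.23 and 8.46 on the ISM1 arrays. ISM1 array 3 was thus the lowest of the 6 and the other ISM1 arrays the highest, and the median ran from -1.17, without ISM1 array 3, to -0.19, without ISM1 array 1. Of 14 fatty acid genes 11 were lower (median -0.60, with a leave-one-out range from -0.86, without KSOM array 2, to -0.33, without KSOM array 3). Acss2, which makes acetyl-CoA from acetate, read 9.37, 9.98 and 8.61 in KSOM against 11.12, 11.23 and 9.92 in ISM1 (2.71-fold, adjusted p = 0.245), overlapping by a single array. Acsl4, which activates long-chain polyunsaturated fatty acids, was lower by 1.62 without overlap, with -1.10 and -0.99 at other probes, and the elongase Elovl5 was lower by 0.88.

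**Figure D4:**
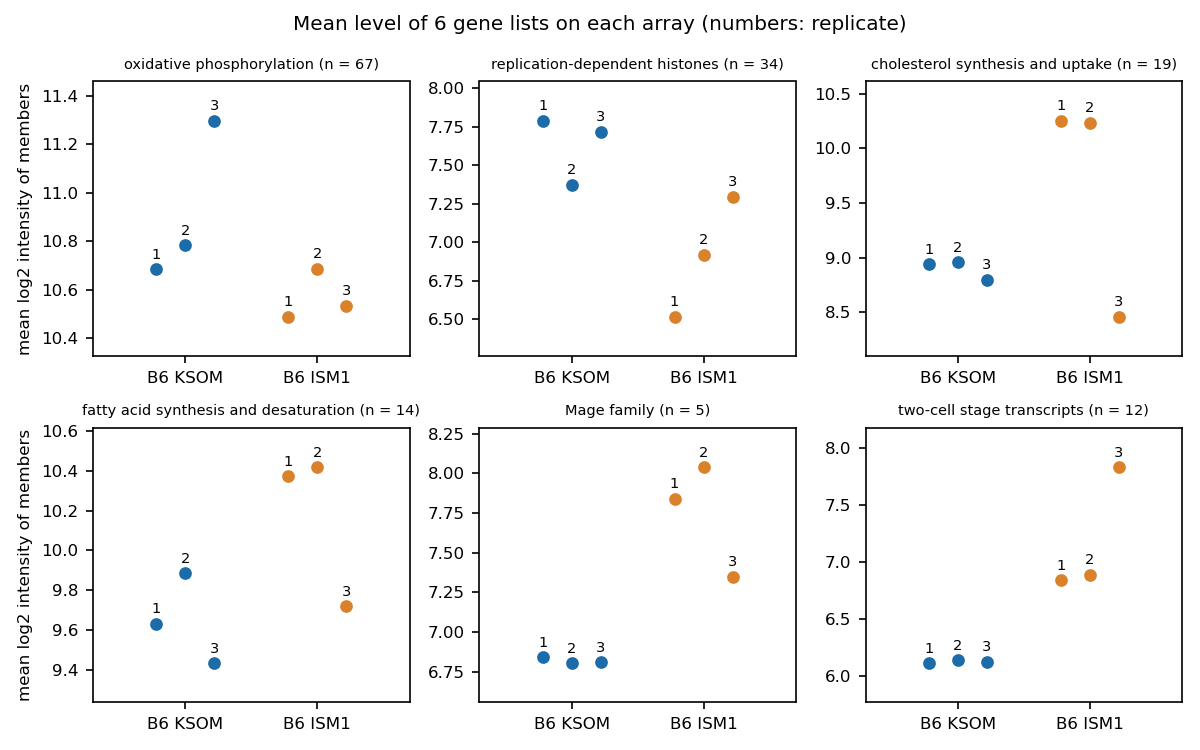
Mean log2 intensity (vertical axes) of the tested members of 6 gene lists on each of the 3 B6 KSOM and 3 B6 ISM1 arrays, with the replicate number above each point. Cholesterol genes are lowest on ISM1 array 3 (8.46), oxidative phosphorylation genes highest on KSOM array 3 (11.30), and the Mage and 2-cell lists lower on every KSOM array than on every ISM1 array.

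Stress genes went in several directions. Ddit3 (CHOP), a transcription factor of the integrated stress response, read 7.80, 6.78 and 10.01 in KSOM against 5.94, 5.96 and 6.04 in ISM1 (4.64-fold, log2 2.22 ± 0.56 SE, adjusted p = 0.176), with 2.25 at a second probe. The KSOM arrays were spread widely while the ISM1 arrays were level. The ISM1 arrays were below all 9 other B6 arrays, as were those of 39 genes (0.417%). The KSOM arrays overlapped the other B6 arrays, of which the in vivo arrays read 7.23, 6.92 and 7.58. Asns, an Atf4 target, averaged 10.93 ± 0.51 in KSOM and 11.55 ± 0.65 in ISM1, and Cth, the cysteine-forming enzyme of transsulfuration, was at least 2.27-fold lower, at 4.82 in KSOM, where it was not detected, and 6.67 in ISM1. Gpt2, an alanine aminotransferase, was higher by 1.43 without overlap. Of the 20 amino acid starvation genes 7 were higher and 13 lower (median -0.24, leave-one-out range -0.31 to -0.12, the last without ISM1 array 2). Among chaperones of the endoplasmic reticulum, Dnajb9 read 6.57, 8.62 and 8.31 against 9.65, 10.15 and 9.53 (3.84-fold, adjusted p = 0.286), and Hspa5 (BiP), the central one, averaged 7.89 ± 0.57 in KSOM and 8.29 ± 0.55 in ISM1 and overlapped.

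Among heat shock genes, Hspb1 (Hsp27), a small chaperone that binds actin and keratin filaments, read 10.07, 9.60 and 11.17 in KSOM against 8.23, 9.03 and 7.87 in ISM1 (3.74-fold, adjusted p = 0.268). Its KSOM arrays were above all 9 other B6 arrays, as were those of Trap1, a mitochondrial chaperone, which was 0.74 higher. Bag3, a co-chaperone, was 0.75 lower without overlap. In the oxidative stress list 9 of 19 were higher and 10 lower. Gpx3, a glutathione peroxidase, was higher by 1.55 without overlap, and Txnrd1, thioredoxin reductase, and Sod1, the copper-zinc superoxide dismutase, were lower by 0.90 and 0.54 without overlap. Gclm, a subunit of the glutathione-making ligase, was lower by 1.41 with KSOM array 2 among the ISM1 arrays. Among p53 pathway genes, Rrm2b, a DNA repair subunit of ribonucleotide reductase, was lower by 1.25 with overlap, and the list median (0.08) was -0.16 under median scaling, -0.20 without KSOM array 2 and -0.64 without ISM1 array 3. In the hypoxia list P4ha1, a collagen prolyl hydroxylase, was lower by 1.60 without overlap.

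Targets and inhibitors of the FGF and ERK pathway were mostly lower in KSOM, while those of the LIF and STAT3 pathway split, with 3 of 6 higher and 3 lower (median -0.12, or 0.15 without KSOM array 3). Of the LIF and STAT3 group, Socs3, the feedback inhibitor induced by LIF and STAT3, read 7.01, 7.16 and 7.22 in KSOM against 9.66, 8.02 and 10.78 in ISM1 (5.12-fold, log2 -2.36 ± 0.90 SE, adjusted p = 0.312). The KSOM arrays were nearly level and the ISM1 arrays spread. Socs2, a relative, was lower by 0.79, and Pias3, an inhibitor of STAT3, higher by 0.75, both with overlap. Lifr, the LIF receptor (0.09), and Stat3 (0.22) overlapped, which does not show that the media acted alike on them. Of the 5 ligand and receptor genes of this list on the array, 2 were detected on any of the 6 arrays. In the FGF and ERK list 5 of 6 targets and inhibitors were lower, 3 without overlap (Dusp4, Fos and Etv5), against 7.15% of all genes, with a median of -0.95 and a leave-one-out range from -1.12, without KSOM array 2, to -0.68, without KSOM array 3. Dusp4, an ERK phosphatase, read 9.996, 10.10 and 10.61 against 12.13, 12.55 and 10.61 (2.88-fold, adjusted p = 0.268), so that KSOM array 3 and ISM1 array 3 were equal at 2 decimals. Fos, undetected on every KSOM array and detected on 2 ISM1 arrays, averaged 4.86 in KSOM and 5.91 in ISM1. Its mean was at least 1.35-fold lower against the detection floor, but the interval of the log2 difference (-2.66 to 0.56) took in no difference. Egr1 (0.72), another early target, was higher with overlap. Among receptors, Tgfbr1 read 7.72, 9.28 and 8.31 against 10.27, 10.33 and 10.52 (3.83-fold, adjusted p = 0.207), with -1.01 at a second probe, and Acvr1 was lower by 1.31, both without overlap. Smad1 was lower by 1.43 and overlapped, with other probes at -0.25 and -1.77. The TGF-beta, activin and BMP list median was -0.32, with a leave-one-out range from -0.43, without KSOM array 1, to 0.07, without KSOM array 3.

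Transcripts of the Mage family, an X-linked multicopy family, and of the 2-cell stage were lower in KSOM. All 5 Mage genes tested were lower, 4 without overlap, against 7.15% of all genes. Magea2 read 9.36, 9.41 and 9.35 in KSOM against 10.52, 10.81 and 10.14 in ISM1 (2.17-fold, adjusted p = 0.312), and Magea5 9.06, 9.35 and 8.87 against 10.27, 10.67 and 9.67, but a second Magea5 probe differed by -0.11. Magea6 was at least 2.54-fold lower by its means, at 5.16 in KSOM, where it was undetected, and 6.83 in ISM1 (interval of the log2 difference -3.14 to -0.20). Their probes may read each other's copies. Of 12 genes of the 2-cell stage, 11 were lower, 4 without overlap, against 7.15% of all genes, and Tcstv3 (-3.35), Gm5662 (-3.27) and Tcstv1 (-2.69) had the largest differences. Gm5662 averaged 4.92 in KSOM, where no array detected it, and 8.19 in ISM1, at least 6.55-fold lower by its means. The interval of its log2 difference was wide (-6.33 to -0.21), a second probe differed by 0.08, and the HTF arrays read 5.73, 5.14 and 8.06. The list mean was 6.12, 6.14 and 6.13 in KSOM and 6.84, 6.89 and 7.83 in ISM1, and the median of -0.63 had a leave-one-out range from -0.66, without KSOM array 3, to -0.23, without ISM1 array 3. In the oocyte list 8 of 19 were higher and 11 lower, with a median of -0.19 that ran from -0.66, without ISM1 array 3, to -0.03, without ISM1 array 1. Tle6, a subunit of the subcortical maternal complex, was higher by 1.38 with overlap.

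Imprinted genes had a median of 0.03, or -0.04 under median scaling (leave-one-out range -0.04 to 0.17), with 8 of 16 higher. Mest, expressed from the paternal allele, read 7.32, 8.07 and 7.46 in KSOM against 6.38, 6.84 and 6.41 in ISM1 (2.11-fold, adjusted p = 0.296), with 1.13 and 0.91 at further probes. Slc22a18 was at least 1.44-fold higher, at 5.94 in KSOM and 4.63, undetected, in ISM1. Impact, also paternally expressed, was lower by 1.13 without overlap, and Igf2r, maternally expressed, by 1.06 with overlap. Igf2 read 10.04, 8.84 and 7.80 against 7.82, 7.63 and 8.67 and overlapped. Among amino acid transporters, Slc36a1, a proton-coupled carrier of small amino acids, read 8.002, 6.93 and 7.44 in KSOM against 5.84, 5.68 and 5.76 in ISM1 (3.24-fold, adjusted p = 0.245), and Slc38a2, induced by amino acid shortage, was lower by 1.39. The lysosome list had a median of 0.05, or -0.10 under median scaling (leave-one-out range -0.03 to 0.19), with Hexa higher by 0.97 and Gusb higher by 0.73 at its brightest probe and 0.25 at another. Of 15 interferon-responsive genes, Bst2 (tetherin) was higher by 1.46 without overlap, Psmb9, a subunit of the immunoproteasome, by 0.87 with overlap, and the Phf11 pair lower. The 2 other genes fixed for naming, Cstdc1 (-0.41) and Ckmt1 (-0.29), a mitochondrial creatine kinase, overlapped.

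The CD1 arrays bore on the B6 comparison through those shared steps, but no CD1 difference entered it. With 1 CD1 KSOM array no test within CD1 was made. Of the 823 genes higher in B6 KSOM without overlap, the CD1 KSOM array was above all 3 CD1 ISM1 arrays for 386 (46.9%, against 23.9% of all genes) and below all of them for 97 (11.8%). Of the 668 lower genes, it was below all for 294 (44.0%, against 20.7% of all genes) and above all for 61 (9.13%). The median CD1 difference was 0.38 for the higher and -0.39 for the lower genes, and 0.02 for all. Of the 10 higher named genes 7, and of the 10 lower 8, had the CD1 array beyond all CD1 ISM1 arrays on the same side. Among lists, 37 of 67 oxidative phosphorylation genes and 20 of 34 histones had the CD1 KSOM array above all CD1 ISM1 arrays, and 3 and 0 below. The other lists with a B6 tilt varied. Of the 20 glycolysis genes 2 were above and 5 below, and of the 12 genes of the 2-cell stage 3 were above and 1 below. Of the 5 Mage genes 0 were above and 2 below, of the 10 pump and water channel genes 1 above and 5 below, and of the 19 cholesterol genes 1 above and 3 below. Of the 14 fatty acid genes 2 were above and 2 below, and of the 54 ribosomal protein genes 24 above and 3 below.

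**Figure D5:**
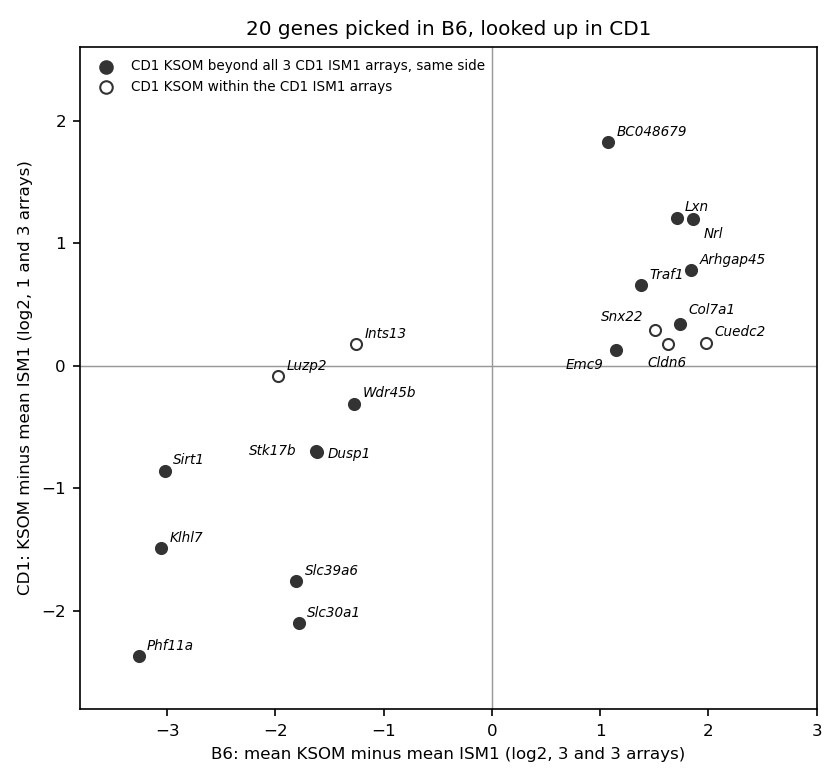
Log2 difference between KSOM and ISM1 in CD1 (vertical axis, 1 KSOM array minus the mean of 3 ISM1 arrays) against that in B6 (horizontal axis, means of 3 arrays each) for the 20 named genes, which were chosen in B6. Filled points mark the 15 genes whose CD1 KSOM array lies beyond all CD1 ISM1 arrays on the B6 side, and Ints13 (0.18 in CD1) is the gene with the other sign.

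The difference between the strains in the effect of the medium was tested in the same fit, which takes the single CD1 KSOM array to vary like the other groups. It called 0 genes (0%), and 254 (2.72%) had an unadjusted p under 0.05. Cuedc2 differed by 1.79 ± 0.64 SE between B6 and CD1 and Luzp2 by -1.89 ± 0.62 SE, each with an adjusted p of 1. Averaged over the strains, a comparison added after the data were seen, KSOM differed from ISM1 for 4 genes (0.0428%). BC048679 rose by 1.45 ± 0.19 SE (adjusted p = 0.00446) and Lxn by 1.46 ± 0.24 SE (adjusted p = 0.0375) in KSOM. Slc30a1 fell by 1.94 and Slc39a6 fell by 1.78 on the log2 scale (adjusted p = 0.0375 each). The CD1 KSOM array lay on the B6 side for all 4, but the CD1 difference was part of the average that called them.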

How the data were processed

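Total RNA was hybridised to Illumina MouseRef-8 arrays, and groups were taken from the titles. The deposited table holds raw bead intensities on a linear scale, each followed by a deposited detection p-value that sets the probe against negative controls. A second table holds log2 values from the authors, whose sorted values differ between arrays by at most 0.000774, so they were quantile-normalised. The submitters' processing notes name BeadStudio 3.2, RMA and lumi, with no order of steps.

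Intensities were background-corrected with the detection p-values in place of negative controls, offset by 16, quantile-normalised and put on the log2 scale with neqc (limma 3.58.1, R 4.3.3). A probe was kept if 3 or more of the 22 arrays detected it at p under 0.05 (12992 of 25697), and each gene took its brightest kept probe, which left 9345 of 16593 genes. Symbols came from the platform annotation (23978 probes with 1 symbol, 1719 with none, 0 with several). All 22 arrays entered lmFit and eBayes with 8 group means (14 residual and 3.51 prior degrees of freedom), two-sided, with Benjamini-Hochberg adjustment. The median SE of a difference was 0.43, and the number of arrays limits the precision. A gene named by rule and detected on no array of 1 group is given with a lower bound against those arrays' detection floor, where that bound lay above no difference. The bound compares means and does not allow for the spread between arrays.

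The arrays compared, the 38 lists and the naming rule were chosen with earlier results of these data known. The text names the 10 higher and 10 lower non-overlapping genes with the smallest unadjusted p that were detected on all arrays of a group, up to 3 members of each list and direction, and 22 genes whatever their result, of which 4 were not analysed here. For the lists, those with an unadjusted p under 0.05 counted. Other list members, the zinc genes beside Slc30a1 and Slc39a6, and Krt8, Krt18, Atp1b1, Aqp3 and Fos were picked once values had been seen. Of the listed entries 665 of 932 were tested, 17 genes through an older symbol. Promoter windows came from RefSeq. The procedure was tested on simulated data. Alternatives covered background, scaling, filter, probe, offset, arrays in the fit, prior, weights, brightness, replicate block and leaving out each array.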

Additional observations from a re-analysis of the deposited data

Results flagged for a closer look

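A pair of named genes stood on opposite sides of ISM1 in the strains, and the differences were not called by the test between strains. The pattern was not particular to them. Of the 823 genes higher in B6 KSOM without overlap, 97 (11.8%) had the CD1 KSOM array below all CD1 ISM1 arrays, against 20.7% of all genes. Of the 668 lower genes, 61 (9.13%) had it above all of them, against 23.9% of all genes. Kdm5d, a Y-linked histone demethylase, read 4.87, 5.02 and 4.61 on the B6 KSOM arrays, where it was not detected, and 6.06, 5.84 and 5.09 on the B6 ISM1 arrays. It was thus at least 1.13-fold lower in B6 KSOM. The CD1 KSOM array read 5.43, above the CD1 ISM1 arrays at 4.64, 4.64 and 4.67, a difference of 0.78 (difference between strains -1.61 ± 0.54 SE, limma adjusted p = 1). The share of male embryos per array was not given in the sources used here. All 4 Y-linked genes tested, Kdm5d among them, were lower in B6 KSOM (median -0.50), 1 without overlap, against 7.15% of all genes. The X-inactivation transcript was higher by 0.15 with overlap. The mean of these 5 was 6.69, 7.49 and 6.82 in B6 KSOM and 7.62, 7.68 and 6.78 in B6 ISM1. In CD1, 1 Y-linked gene was above all ISM1 arrays and 1 below. The part of embryo sex in any difference was not tested. Slc39a7, a zinc transporter of the endoplasmic reticulum, read 11.38, 10.61 and 10.95 on the B6 KSOM arrays and 10.38, 10.29 and 10.59 on the B6 ISM1 arrays. In CD1 the KSOM array read 9.502, below the ISM1 arrays at 10.73, 10.66 and 10.22, a difference of -1.03 (difference between strains 1.60 ± 0.75 SE, adjusted p = 1), and a second probe differed by -0.20 in B6.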

How the results depend on the processing

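The count of called genes, 0 as reported, was 1 under median scaling (Nrl), 3 without the detection filter (BC048679, Lxn and Traf1), 1 with an offset of 50 (Lxn), 1 from the 12 B6 arrays alone (Cd79b), 555 with array quality weights, 2 with median intensity as a covariate (Lxn and Nrl) and 4 averaged over the strains, a comparison added after the data were seen. It was 0 with a replicate block, the RMA-style background, the authors' log2 values, the stricter filter, the mean of a gene's probes, an offset of 1, the 6 arrays alone and the trended prior, and from all kept probes, also added later. Leaving out 1 array gave 0 to 296 calls and 2047 to 3617 genes without overlap, with the highest counts without KSOM array 2. The 20 genes named by smallest unadjusted p were all among the 296 and among the 555, which shared 206 genes. They had been picked from these same arrays, so this is no separate support, and 4 of them were called without ISM1 array 3. The test between strains called 10 genes without the filter and 3 with weights. Of 109 named genes 103 kept their sign under every setting. Cdx2 turned to -0.077 under median scaling and ranged from -0.090 to 0.42 without 1 array. Mt1 turned to -0.033 in the authors' log2 values, -0.40 with weights and -0.085 with the covariate, and ranged from -0.61 to 0.37 without 1 array. Gata3 turned to 0.16 with weights and 0.086 with the covariate, and ranged from -0.75 to 0.32 without 1 array. Gata4 turned to -0.034 with weights and Atp1b1 to 0.020. Without 1 array Atp1b1 ranged from -0.96 to 0.28 and Eomes from -0.33 to 1.11. The causes were not tested. Medians of 22 of 38 lists kept their sign. Leave-one-out medians of the role groups within lists were added after the data were seen. Deviations from the group means correlated at r of 0.11, -0.15 and -0.11 for same-numbered arrays and from -0.29 to 0.29 for the others. With 3 arrays a group these values cannot settle whether the numbers pair arrays, and the reported fit did not pair them. Genes near the detection floor have understated differences.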
